A study of Vitis amurensis with 6 samples.

Results

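The genes described here are 9 transcription factors that control the phenolic compounds of grapevine: the R2R3-MYB genes MYB14, MYB15, MYBF1, MYBA1, MYBPA1, MYBPA2, MYB5a and MYB5b, and the basic helix-loop-helix (bHLH) gene MYC1. They were taken by identifier from a table of 31845 genes, and each of the 9 identifiers was found in it. The deposited table does not pair identifiers with names, so the names are those under which the members were listed. RNA was sequenced from leaves of wild-type Vitis amurensis, a wild grape of north-east Asia known for winter hardiness. The plants were one month old and grown in vitro on B5 medium with 0.2 mg/L of the auxin IBA. The 3 control libraries came from untreated plants at 26 °C, and the 3 cold libraries from plants moved for 2 h to 4 °C, both at about 100 µmol of light per square metre and second. A day of 16 h of light and 8 h of dark is given for all 6 libraries. The time of sampling of the controls is not stated, so temperature, the 2 h that passed and the move itself cannot be told apart. It is not stated whether replicate libraries were made from different plants, so p-values measure the spread between these libraries, which may be technical.

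Grapevine makes stilbenes such as resveratrol and flavonoids from the same precursors, since stilbene synthase and chalcone synthase use the same substrates. The R2R3-MYB proteins described here bind promoters of enzyme genes and activate parts of these pathways. In grapevine, MYB14 and MYB15 activate stilbene synthase genes and are known to respond to wounding and ultraviolet light. MYBF1 activates flavonol synthesis, MYBA1 the last step of anthocyanin synthesis, MYBPA1 and MYBPA2 the synthesis of proanthocyanidins (condensed tannins), and MYB5a and MYB5b several steps of the general flavonoid pathway. MYC1 is a bHLH partner that acts together with MYB proteins on anthocyanin and proanthocyanidin genes. MYB14 and MYB15 are called stilbene regulators below and the other 7 flavonoid regulators. Leaf identity and the enzymes of the pathway were not examined, because the identifiers of other genes were not matched to names here.

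Of the 9 regulators 7 were tested, and after 2 h in the cold 1 was called higher and 1 lower. Among all tested genes, 21.0% were called higher and 13.4% lower. MYB15 rose 6.93-fold and MYBF1 fell to 0.161 of its control level, both in mean FPKM (reads or fragments scaled to gene length and to library size). MYB14 had no read in any control library and between 4 and 17 reads in each cold library. MYBA1 had 257, 22 and 4 reads in control libraries 1, 2 and 3 and at most 1 read in any cold library. MYBPA1, MYB5a, MYB5b and MYC1 did not pass the test, and MYBPA2 stayed at or under 3 reads in every library.

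The test was limma-trend on log2(FPKM + 1) over the 17155 genes whose mean over the 6 libraries reached 1 FPKM, with p-values adjusted over all of them by Benjamini-Hochberg and a threshold of 0.05. Of the 9 members 7 entered it, and MYB14 and MYBPA2 lay under the filter. Of those 7, 1 was called higher and 1 lower in the cold. Of all tested genes 21.0% were called higher and 13.4% lower, so the share of members called is close to the background and is no property of the group. The split of the background depends on scaling, with 3606 genes higher and 2295 lower in the values as given, 2807 and 2922 once scaled by median of ratios, and 2672 and 3156 once quantile normalized. The median log2 change was -0.09 over the 7 members and 0.08 over all tested genes, a value that moved to 0.00 with median-of-ratios scaling and to -0.03 with quantile normalization. Library totals implied by the FPKM steps ran from 16437001 to 21217704 reads, with the 3 cold libraries the deepest. Libraries within each group were uneven on the second principal component of log2(FPKM + 1), which held 14.2% of the variance. Control libraries 1, 2 and 3 lay at 39.1, -16.6 and -22.7, and cold libraries 1, 2 and 3 at -14.7, -0.323 and 15.3.

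**Figure D1:**
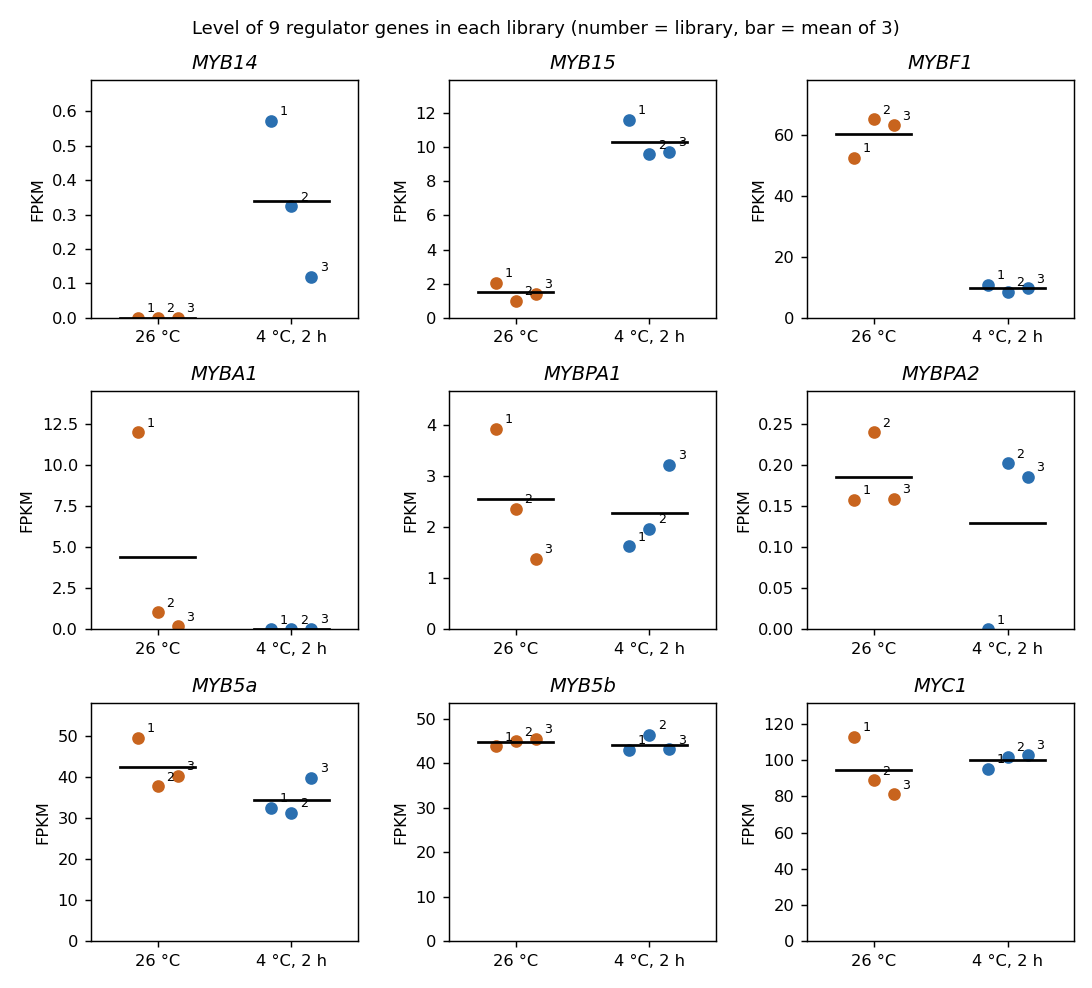
Level in FPKM (linear axes from 0, a different scale in each panel) of the 9 regulators in the 3 control libraries (26 °C, orange) and the 3 cold libraries (4 °C for 2 h, blue), numbered by library, with a bar at the mean. MYB15 stood between 9.57 and 11.6 FPKM in the cold libraries against at most 2.06 in control, MYBF1 between 8.58 and 10.8 against at least 52.4, and MYBA1 reached 12.0 FPKM in control library 1 alone.

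Among the stilbene regulators, MYB15 (VIT_205s0049g01020, chromosome field 05 of the identifier) was low in warm leaves and moderate in chilled ones. Its levels were 2.06, 1.01 and 1.40 FPKM in control libraries 1, 2 and 3 and 11.6, 9.57 and 9.74 FPKM in cold libraries 1, 2 and 3. All 3 cold libraries lay well above all 3 control libraries, a separation in this direction that 31.6% of all tested genes showed. The means were 1.49 ± 0.530 and 10.3 ± 1.14 FPKM (SD, n = 3 each), which rest on 30 to 62 and 337 to 395 reads per library. The log2 change on the log2(FPKM + 1) scale, which understates changes of low genes, was 2.20 (SE 0.17, limma-trend adjusted p = 4.6e-04). Of all tested genes, 1.68% rose by at least this much. In its level, MYB15 went from above 8.46% of the tested genes in control to above 50.0% of them in the cold. The identifier next before it, VIT_205s0049g01010, held at most 2 reads in any library, and the next after it did not pass the test (log2 change -0.16, SE 0.12, limma-trend adjusted p = 0.34).

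MYB14 (VIT_207s0005g03340, chromosome field 07) was at the edge of detection. It had 0 reads in each control library, where the floor of 3 reads used here lies between 0.114 and 0.116 FPKM. The exact 95% Poisson interval of 0 reads reaches 3.69 reads. Cold libraries 1, 2 and 3 held 17, 10 and 4 reads, which is 0.573, 0.325 and 0.119 FPKM. The groups did not overlap, as in 26.4% of the genes above 0 in any library, but cold library 3, whose exact 95% Poisson interval runs from 1.09 to 10.2 reads, is close to what 0 reads allow. With a floor of 3 reads put in place of 0 for the whole control group, the pooled cold level was 8.63 times that floor. Without cold library 1 it was 5.70 times the floor. These values leave out counting error in the cold reads, so they are no lower limits. No read in control together with reads in all 3 cold libraries was found in 1.14% of the 25054 genes above 0 in any library, and the converse in 0.168%. The cold libraries were deeper, and the part of depth in these shares was not tested. In the fit with no filter on low values, which called 15.1% of genes higher, MYB14 missed the threshold (log2 change 0.41, SE 0.12, limma-trend adjusted p = 0.055). It passed in 5 of the 13 alternatives, among them limma-voom on recovered reads, where the adjusted p was 0.0069 and 16.0% of genes were called higher. Over the 13 alternatives the adjusted p ran from 0.0069 to 0.16. With no read in control, MYB14 entered the set of genes above 0 and these fits only through its cold libraries. Its separation, the shares of genes and the adjusted p-values in this paragraph are therefore description and no support for a change.

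In the cold libraries both genes were highest in library 1. MYB15 was nearly equal in cold libraries 2 and 3. MYB14 had 4.80 times the level in cold library 1 that it had in cold library 3. That spread rests on 17 against 4 reads, with exact 95% Poisson intervals of 9.90 to 27.2 and 1.09 to 10.2. These intervals overlap, so the size of the spread is uncertain. The tested gene whose levels followed MYB14 most closely over the 6 libraries was VIT_216s0100g00860, on scaffold field 0100 of chromosome field 16 (Pearson's r = 0.9981 on log2(FPKM + 1), given as a description). It stood at 0.384, 0.438 and 0.531 FPKM in control libraries 1 to 3 and at 9.62, 4.27 and 1.21 FPKM in cold libraries 1 to 3. It entered the test through its cold libraries and was chosen for its likeness to MYB14, so its own change is not given as a result. Of the 3 tested genes most like MYB14, 2 carry this scaffold field. The share of all tested genes that carry it was not counted, so no excess of this field can be read from that. An r of 0.98 was reached by 16 tested genes, 0.0933%, with MYB14 and by 362 genes, 2.11%, with MYB15. MYB14 had at most 17 reads in any library, and the part of its counting error in this difference was not tested. The gene most like MYB15 was VIT_201s0011g06470 of chromosome field 01, with r = 0.9999. It went from 4.38, 3.13 and 3.62 FPKM in control to 11.7, 10.7 and 10.7 FPKM in the cold, a pattern for which it was chosen. With 3 libraries in each of 2 groups, a high r mostly restates a difference between the groups.

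MYBF1 (VIT_207s0005g01210, chromosome field 07), the activator of flavonol synthesis, was the member that fell. Its levels were 52.4, 65.0 and 63.1 FPKM in control libraries 1, 2 and 3 and 10.8, 8.58 and 9.71 FPKM in cold libraries 1, 2 and 3. The lowest control library was far above the highest cold library, and libraries of a group differed by at most 1.26-fold. A separation of the groups in this direction was shown by 19.7% of all tested genes. The means were 60.2 ± 6.78 and 9.70 ± 1.12 FPKM (SD, n = 3 each), on 2149 to 2629 and 411 to 507 reads per library, so the control level was 6.20 times the cold level. The log2 change was -2.51 with a standard error of 0.12 and a 95% confidence interval from -2.80 to -2.23 (limma-trend, adjusted p = 1.1e-04). Among the 17155 tested genes, 50 (0.291%) fell by at least this much, MYBF1 included. Of the genes beside it in the numbering, the one before fell less, with a log2 change of -0.43 (SE 0.10, limma-trend adjusted p = 0.019), and the one after rose by 0.82 (SE 0.12, limma-trend adjusted p = 0.0034).

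MYBA1 (VIT_202s0033g00410, chromosome field 02), the switch of anthocyanin synthesis, was uneven among warm leaves. It had 257, 22 and 4 reads in control libraries 1, 2 and 3, which is 12.0, 1.04 and 0.189 FPKM. The cold libraries held 0, 0 and 1 reads, or 0, 0 and 0.0368 FPKM. Every control library was above every cold library, as was so for 19.7% of all tested genes. Control library 1, however, was 11.5 times control library 2 and 63.9 times control library 3. MYBA1 entered the test only through its control libraries, chiefly control library 1, as no cold library exceeded 0.0368 FPKM. Its separation and the shares of tested genes in this paragraph are therefore description and no support for a change. MYBA1 did not pass the test (log2 change -1.64, SE 0.82, 95% confidence interval from -3.61 to 0.32, limma-trend adjusted p = 0.17), and its log2 change was -0.62 when control library 1 was left out (limma-trend adjusted p = 0.13, with a range from 0.066 to 0.29 over the 14 alternatives). The size of the change depends on the handling of low values: it was -2.21 with a pseudocount of 0.5, -3.84 with a pseudocount of 0.1 and -5.63 with limma-voom on recovered reads, and it passed the threshold in none of these. In reads, the pooled control level was 339 times the pooled cold level, with a counting interval from 60.3 to 13431, and without control library 1 it was 46.8 times (7.70 to 1921). These intervals cover counting error and not the spread between libraries. The standard deviation of log2(FPKM + 1) among control libraries was 1.81 for MYBA1 and 0.15 for the median tested gene, and 99.9% of tested genes varied less. Control library 1 was at least 10-fold above both other control libraries for 42 tested genes, 0.245%, against 16 genes for control library 2 and 10 for control library 3. The 2 identifiers directly before MYBA1 had no read in any library. The one directly after it, VIT_202s0033g00420, had 7, 6 and 2 reads in control and 5, 9 and 16 in the cold and did not pass the test (log2 change 0.40, SE 0.31, limma-trend adjusted p = 0.35). The third before it, VIT_202s0033g00390, singled out after its values were seen, had 34 reads in control library 1, 0 in control libraries 2 and 3, and 0, 0 and 2 in the cold. The anthocyanin MYB genes of grapevine lie side by side and are similar in sequence, and the sources used here do not say how reads that match several copies were counted, so the level of MYBA1 is uncertain to that extent.

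**Figure D2:**
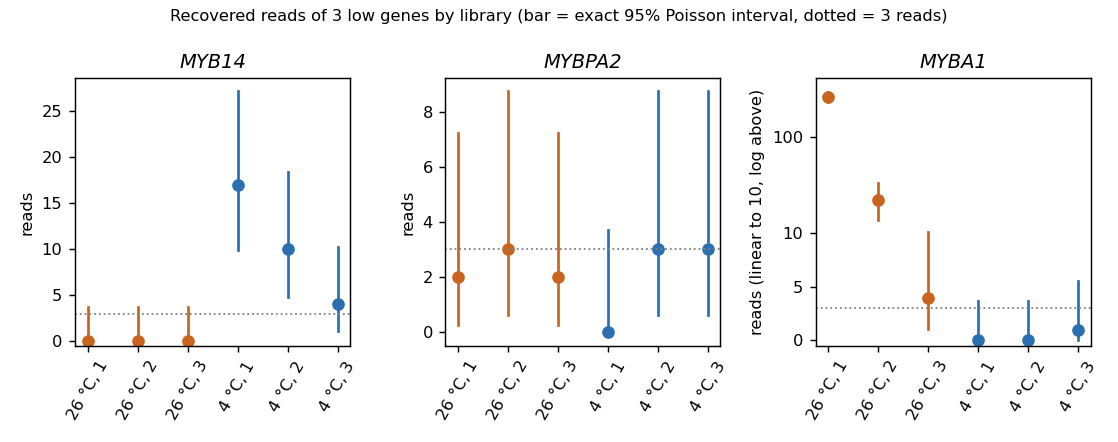
Reads recovered from the FPKM steps for MYB14, MYBPA2 and MYBA1 in each library (orange 26 °C, blue 4 °C), with exact 95% Poisson intervals that cover counting error only and a dotted line at 3 reads. The axis of MYBA1 is linear up to 10 reads and logarithmic above. MYB14 had 0 reads in each control library and 17, 10 and 4 in cold, MYBPA2 had at most 3 reads in any library, and MYBA1 had 257 reads in control library 1 and at most 22 elsewhere.

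Of the proanthocyanidin regulators, MYBPA1 (VIT_215s0046g00170, chromosome field 15) was low and variable. It stood at 3.92, 2.36 and 1.38 FPKM in control libraries 1, 2 and 3 and at 1.62, 1.97 and 3.22 FPKM in cold libraries 1, 2 and 3. The groups overlapped fully, and the libraries of a group differed by 2.83-fold in control and 1.99-fold in the cold. The log2 change was -0.09 (SE 0.30, limma-trend adjusted p = 0.84), with a 95% confidence interval from -0.81 to 0.63 that leaves a change to 0.57 or to 1.55 times the control value on the log2(FPKM + 1) scale possible. MYBPA2 (VIT_211s0016g01310, chromosome field 11) held 2, 3 and 2 reads in the control libraries and 0, 3 and 3 in the cold libraries. Its level was at most 0.240 FPKM, and a difference was not detectable at this depth: the pooled control level was 1.40 times the cold level, with a counting interval from 0.402 to 5.03. The identifier before it, VIT_211s0016g01300, was tested and did not pass (log2 change -0.21, SE 0.23, limma-trend adjusted p = 0.51).

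The general flavonoid regulators MYB5a and MYB5b were abundant in all 6 libraries. MYB5b (VIT_206s0004g00570, chromosome field 06) was the steadiest member, at 43.9, 45.0 and 45.6 FPKM in control and 43.1, 46.5 and 43.2 FPKM in the cold. Only 3.03% of tested genes varied less among the control libraries. Its log2 change was -0.02 (SE 0.07, limma-trend adjusted p = 0.86), and the 95% confidence interval limits a change to between 0.88 and 1.11 times the control value on the log2(FPKM + 1) scale. MYB5a (VIT_208s0007g07230, chromosome field 08) stood at 49.5, 37.7 and 40.2 FPKM in control and at 32.4, 31.2 and 39.7 FPKM in the cold. The groups overlapped through cold library 3, and the means were 42.5 ± 6.20 and 34.4 ± 4.58 FPKM (SD, n = 3 each). The log2 change of MYB5a was -0.29 with a 95% confidence interval from -0.62 to 0.03 (SE 0.14, limma-trend adjusted p = 0.14), a range of 0.65 to 1.02 times the control value.

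MYC1 (VIT_207s0104g00090, chromosome field 07), the bHLH partner, had the highest level of the 9 genes in both groups. It stood at 113, 88.9 and 81.2 FPKM in control libraries 1, 2 and 3 and at 95.4, 102 and 103 FPKM in cold libraries 1, 2 and 3. The cold libraries lay within the range of the control libraries. The log2 change was 0.10 (SE 0.13, limma-trend adjusted p = 0.59), and the 95% confidence interval from -0.21 to 0.40 limits a change to between 0.86 and 1.32 times the control value. MYC1 and MYBPA1 had the same order of libraries, control 1 above 2 above 3 and cold 3 above 2 above 1. This order was the commonest of the 36 possible ones and was found in 7.84% of all tested genes, so it is not particular to these regulators.

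**Figure D3:**
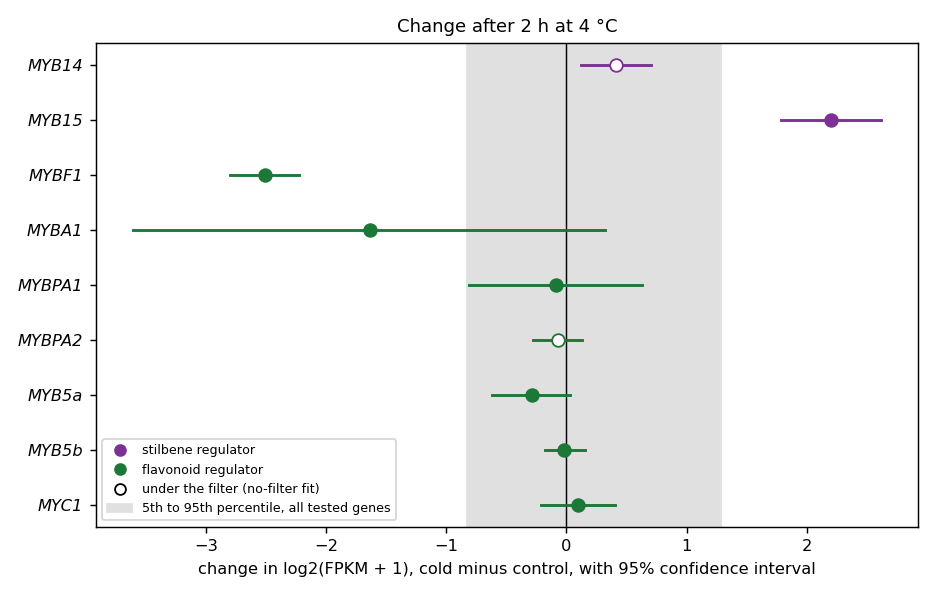
Change in log2(FPKM + 1) after 2 h at 4 °C for the 9 regulators, as point and 95% confidence interval from limma-trend, in purple for stilbene and green for flavonoid regulators; open points mark the 2 genes under the filter, taken from the fit with no filter. The grey band spans the 5th to 95th percentile of all tested genes, -0.83 to 1.29. MYB15 at 2.20 and MYBF1 at -2.51 lie outside it with their whole intervals, and the interval of MYBA1 reaches from -3.61 to 0.32.

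Levels compared per length placed the regulators in another order after cold. In control leaves the mean FPKM fell from MYC1 over MYBF1, MYB5b, MYB5a, MYBA1, MYBPA1 and MYB15 to MYBPA2 and MYB14. The neighbours MYB5b and MYB5a, MYBA1 and MYBPA1, and MYBPA1 and MYB15 overlapped in that order, and the other neighbours did not. In chilled leaves MYB5b and MYB5a followed MYC1, and MYB15 had drawn level with MYBF1, at 10.3 and 9.70 FPKM with overlapping libraries. MYBPA1, MYB14, MYBPA2 and MYBA1 came last, and of these only MYBPA1 was above the next in every library.

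MYB15, which activates stilbene genes, and MYBF1, which activates flavonol genes, came to nearly equal levels in the cold. MYBF1 had 25.5, 64.4 and 45.0 times the FPKM of MYB15 in control libraries 1, 2 and 3. In cold libraries 1, 2 and 3 the ratio was 0.930, 0.896 and 0.996. The control ratios were uneven and the cold ratios nearly equal, and the groups were far apart. These ratios combine the changes of both genes given above and are no separate evidence. Against MYC1, MYBF1 went from 0.658 ± 0.169 to 0.0974 ± 0.0149 times its FPKM and MYB15 from 0.0156 ± 0.00373 to 0.104 ± 0.0159 (SD, n = 3 each). The ratio of MYB5a to MYB5b, the pair of close relatives, was 0.950 ± 0.156 in control and 0.780 ± 0.126 in the cold, with overlapping groups.

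Each stilbene regulator was also set against each flavonoid regulator. Taking log2(FPKM + 1) of MYB15 minus that of each of the 7 flavonoid regulators in each library, the cold libraries lay above the control libraries for 7 of 7. The same held against 95.3% of the 17148 tested genes that are no members, so this count restates the rise of MYB15. The shift in this difference was 4.71 against MYBF1 and 3.85 against MYBA1, and between 2.10 and 2.50 against the other 5, close to the log2 change of 2.20 of MYB15 itself. For MYB14 the groups separated against 5 of 7 and overlapped against MYBPA1 and MYC1, while they separated against 37.3% of the tested genes that are no members. MYB14 alone already separates the groups, so neither count is a contrast particular to flavonoid regulators. Of the 6 flavonoid regulators that were tested, MYBF1 alone was called, and MYBPA2 lay under the filter. Since 13.4% of all tested genes were called lower, this count does not set the flavonoid regulators apart. The 95% confidence intervals of the log2 changes of MYB5b and MYC1 began at -0.18 and -0.21, above the end of that of MYBF1 at -2.23, and those of MYB5a and MYBPA1 began at -0.62 and -0.81. The interval of MYBA1, from -3.61 to 0.32, contains that of MYBF1 whole, so these data do not set MYBA1 and MYBF1 apart.

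The summed level of the 8 MYB genes was 156 ± 6.81 FPKM in control and 101 ± 3.93 FPKM in the cold (SD, n = 3 each), without overlap. Most of the difference is the fall of MYBF1 from 60.2 to 9.70 FPKM. The sum and the shares mostly restate the changes of MYBF1 and MYB15 given above and are no separate evidence. MYBF1 made up 32.0%, 42.7% and 41.5% of this sum in control libraries 1, 2 and 3 and 10.8%, 8.72% and 9.17% in cold libraries 1, 2 and 3. The share of MYB14 and MYB15 went from 1.25%, 0.662% and 0.922% to 12.2%, 10.1% and 9.32%, nearly all of it MYB15. MYB5a and MYB5b, whose own levels did not pass the test, held 55.9% ± 1.42 of the sum in control and 77.5% ± 1.92 in the cold (SD, n = 3 each). In bulk leaf RNA, a change in the level per cell and a change in the number of cells that express a gene cannot be told apart.

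**Figure D4:**
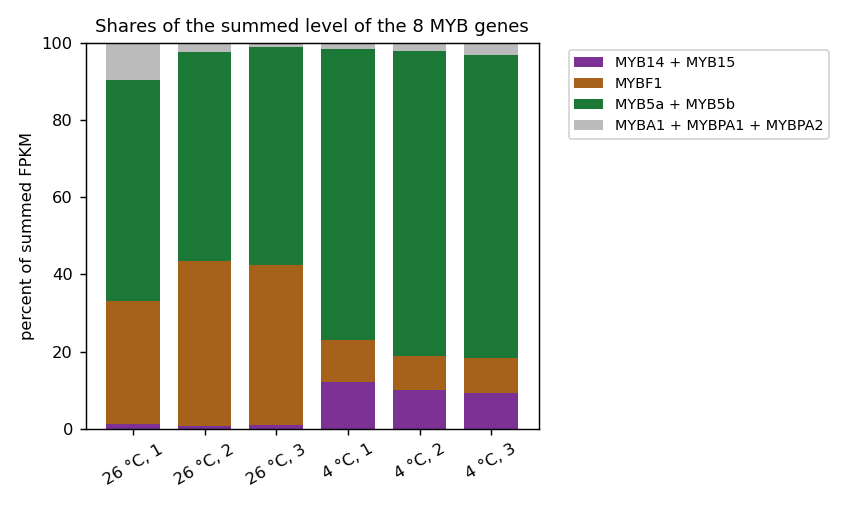
Percent of the summed FPKM of the 8 MYB genes held by MYB14 and MYB15 (purple), MYBF1 (brown), MYB5a and MYB5b (green) and the other 3 (grey) in each library, from 0 to 100. The share of MYBF1 lay between 32.0% and 42.7% in control and between 8.72% and 10.8% in the cold, and that of MYB14 and MYB15 was at most 1.25% in control and at least 9.32% in the cold.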

How the data were processed

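The authors deposited one table of FPKM values, 31845 identifiers by 6 libraries, with columns named by sample title. The tools named, per the submitters' processing notes, are STAR, HTSeq, DESeq2, cutadapt and FastQC, and libraries were made with an Illumina TruSeq RNA kit, per the labels' protocols. No source used here gives the genome build, annotation, strand setting or treatment of reads that match several places.

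Values were tested as deposited by limma-trend (limma 3.58.1, R 4.3.3) on log2(FPKM + 1), two-sided, after a filter at a mean of 1 FPKM. Members under the filter were taken from a fit on the 25054 genes above 0. Reads behind the FPKM values were recovered from the steps between values: all 25054 genes above 0 came out whole to within 0.001 reads. They served for depth, floors, exact Poisson intervals and a limma-voom alternative. The fit and the recovery were tested on simulated data. Libraries of a group differed by more than counting noise (chi-square per degree of freedom between 12.0 and 70.1), so none is a copy of another, which does not show that they come from separate plants. Other steps ran in Python 3.11.15 with SciPy 1.17.1, pandas 2.3.3 and numpy 2.4.6.

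The members, their division by pathway and the tests were chosen with earlier results of these data known. All 9 members are named; of other genes, the tested gene most like MYB14 and the one most like MYB15 by Pearson's r were named by rule. Identifiers next to a member in the numbering were added after their values were seen. Lists of pathway enzymes and further regulators were not used here, because no table at hand pairs identifiers with names. Alternatives covered the pseudocount, filter, scaling, library weights, replicate block, voom and each library left out.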

Additional observations from a re-analysis of the deposited data

How the results depend on the processing

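MYB15 and MYBF1 kept their direction and passed the threshold in each of 15 alternatives, with log2 changes from 2.06 to 2.83 and from -2.66 to -2.44. MYB14, at 0.41, passed with pseudocounts of 0.1 (1.99) and 0.5 (0.71), with library weights (0.43) and with limma-voom (3.94); it was 0.28 to 0.53 over the fits that left out 1 library, and it passed without cold library 3. The remaining members were called in none of their alternatives, though MYBA1 ranged from -5.63 (limma-voom) to -0.62 (without control library 1). Among these uncalled values the sign turned for MYBPA1 without control library 1 (0.18) and without cold library 1 (0.06), with a range of -0.35 to 0.18 over libraries left out, for MYBPA2 without cold library 1 (0.01), with a range of -0.12 to 0.01, for MYB5b with library weights (0.00), and for MYC1 without control library 3 (0.00), with a range of 0.00 to 0.23; the cause was not tested. Genes lower in the cold numbered 3549 with library weights. Leaving out each library gave 2253 to 4180 genes higher and 1425 to 2746 lower, with the low ends without cold library 2. With the replicate block, MYB15 had an adjusted p of 0.0034 and MYBF1 of 0.0032, and 2480 genes were higher and 1627 lower; no member's call changed. No pairing of libraries by number was seen. Deviations from the group means correlated at -0.26, -0.13 and -0.28 between libraries of one number, and for 0 of 3 numbers was this the best match. With 3 libraries in each group, these correlations cannot exclude a batch shared by libraries of one number. MYB14, MYBPA1, MYBPA2 and MYBA1 could not be fitted under a filter at mean 5 FPKM, and depth limits MYB14 and MYBPA2.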
